A study of Caenorhabditis elegans with 4 samples.

Results

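The 602 regions described here are the GEI-11 binding regions of the left arm and centre of chromosome II in fed L1 larvae of Caenorhabditis elegans. They were chosen by position alone, as the combined-list regions of chromosome II whose centre lay within the left 2 parts of 5.1 Mb each in the WormBase WS220 build. They make up 602 of 5999 combined regions on 6 chromosomes. The left arm, up to 5100000, held 239 of them and the centre, the next 5.1 Mb, held 363. Every position below is on chromosome II in WS220 and is counted from 1.

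GEI-11 is another name of SNPC-4, a subunit of SNAPc and the worm counterpart of human SNAPC4. This complex recognises the proximal sequence element in front of small nuclear RNA genes and recruits RNA polymerase II or III to them. In worms SNPC-4 is also known for its part in transcribing piRNA genes. Worm autosomes have gene-dense centres that hold many conserved and widely expressed genes, and arms that recombine more often and carry more repeats. The arms and centre named below are parts set by position, and their borders were not compared with recombination or gene density.

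The study compared 2 ChIP samples, collected with an antibody against GFP, and 2 input samples of sonicated chromatin from the same strain, each set numbered as replicates 1 and 2. All 4 came from hermaphrodites of the strain OP179, which carries the unc-119(ed3) mutation on chromosome III and the transgene wgIs179, fed HB101 bacteria at 20 °C and fixed in 2% formaldehyde. The transgene pairs unc-119(+) with the fusion gei-11::TY1::EGFP::3xFLAG and was introduced by bombardment, and the genotype names no mutation of the endogenous gei-11 gene. Whole larvae were used, so tissues were not resolved, and nothing in the labels says whether the replicates were separate cultures. No input list was used (0 of 3 lists), so no separate input regions stand beside the ChIP regions. Whether the inputs entered the q values is unstated, and depth is unknown for all samples. What is annotated at each position was not analysed here, since the gene table at hand is of another assembly, and no sequence of WS220 was used.

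Each region carried a q value from the authors' peak caller, PeakSeq, and strength is given below as −log10 q, so a higher value means a smaller q. A q value depends on sequencing depth, so it orders regions within a list and does not measure occupancy between lists. The strength values of the 602 regions ran up to 242, with a median of 4.15 and quartiles of 2.73 and 7.40. Over all combined regions the median was 4.20. The widths of the 602 regions had a median of 310 bp and quartiles of 202 bp and 419 bp, against 315 bp, 202 bp and 429 bp over all combined regions. At the border between left arm and centre, the last region inside the arm was 5092354 to 5092787 (−log10 q 7.40) and the first in the centre 5105134 to 5105416 (9.15). At the right border, the last region inside was 10197124 to 10197330 (2.55) and the first outside 10200762 to 10201039 (2.12).

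The left arm was thinner in GEI-11 regions than the centre. It held 46.9 regions per Mb over 5.1 Mb, and the centre held 71.2 per Mb over an equal length. The ratio of left arm to centre was 0.658 (95% interval 0.557 to 0.777, two-sided exact binomial test, adjusted p = 1.72e-06, Benjamini-Hochberg over 7 tests). Replicate 1 gave 119 regions in the left arm and 207 in the centre, a ratio of 0.575. Replicate 2 gave 147 and 227, a ratio of 0.648. Covered length differed more than the number of regions, with 73.6 kb (1.44% of the length) in the left arm and 137 kb (2.68%) in the centre, a ratio of 0.539. The test counts neighbouring regions as independent although they cluster, so its p is too small. Among regions of q 1e-10 or less, 41 lay in the left arm and 61 in the centre, and the ratio of 0.672 (0.441 to 1.01) was past no threshold (exact binomial test, adjusted p = 0.174).

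The span was divided into 10 equal blocks of 1.02 Mb, so that the border of the arm fell between blocks 5 and 6. In the left arm the 5 blocks held 54, 30, 54, 48 and 53 combined regions from left to right, a mean of 47.8 ± 10.3 (SD, n = 5 blocks). In the centre they held 71, 89, 76, 67 and 60, a mean of 72.6 ± 10.9 (SD, n = 5 blocks). The blocks of the arm and the centre did not overlap in the combined list. They did not overlap in replicate 1 either, with 17 to 27 regions per block in the left arm and 29 to 56 in the centre. In replicate 2 they did overlap, with 13 to 39 in the left arm and 33 to 62 in the centre. Without the thinnest block of the arm and the fullest of the centre, the ratio was 0.763 (0.634 to 0.917, exact binomial adjusted p = 0.0124), a check chosen after the data were seen.

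**Figure D1:**
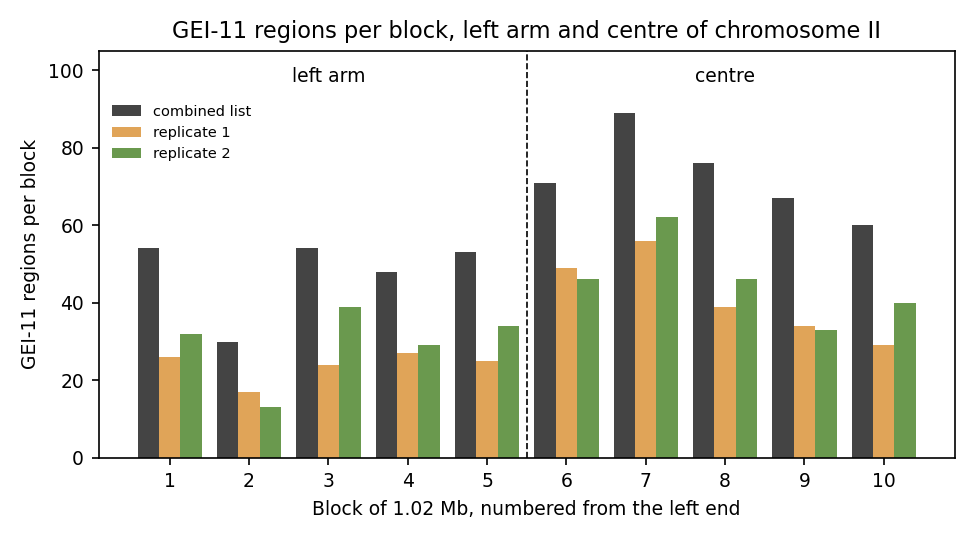
Number of GEI-11 regions (y axis) in each of 10 blocks of 1.02 Mb, numbered from the left end of chromosome II (x axis), in the combined list, replicate 1 and replicate 2. The 5 left-arm blocks of the combined list hold 30 to 54 regions and the 5 centre blocks 60 to 89; the fullest block in every list is block 7.

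Against the rest of the series, the span as a whole held about the number of regions its length would give. The ratio to length was 0.986 (0.912 to 1.06) and was past no threshold (exact binomial test, adjusted p = 0.965). The left arm had 0.620 times the density of the right arm of chromosome II, which begins where the centre ends and held 383 regions over 5.06 Mb (0.525 to 0.730, exact binomial adjusted p = 2.91e-08). The ratio of left to right arm was 0.444 in replicate 1 (119 regions in the left arm, 266 in the right) and 0.502 in replicate 2 (147 and 291). The centre, at 71.2 regions per Mb, lay closer to the right arm, at 75.6 per Mb. Its covered share, 2.68%, was also close to the 2.70% of the right arm; neither comparison was tested. The central part of chromosome III, when that chromosome was divided into 3 equal lengths, held 84.3 regions per Mb.

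Most of the strongest regions of the span lay in the centre, which also held 363 of its 602 regions. Of the 8 regions with a q of 1e-100 or less, 1 was in the left arm and 7 in the centre. This split was not tested, and the number of such regions over the whole combined list is not given here. Of the 100 strongest regions of the whole combined list, 1 lay in the left arm, 8 in the centre and 15 in the right arm. These parts held 239, 363 and 383 of all 5999 combined regions, and the counts among the 100 strongest were not tested against those shares. The share of strong regions did not differ detectably between the divisions: 41 of 239 left-arm regions (17.2%, interval 12.6 to 22.5) and 61 of 363 centre regions (16.8%, 13.1 to 21.1) had a q of 1e-10 or less. This share differed by 0.350 percentage points and did not pass Fisher's exact test (adjusted p = 0.965). Over all combined regions the share was 19.7%. In the span it was 102 of 602 regions, against 1079 of 5397 elsewhere, a difference of -3.05 points that was past no threshold (Fisher's exact test, adjusted p = 0.174).

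The first region of the span, 5844480 to 5845242 in the centre, reached a −log10 q of 201 for replicate 1, 220 for replicate 2 and 242 for the combined list, where it ranked 7 of 5999. It was 763 bp wide. The second, 6967501 to 6968855, had 110, 152 and 188 in the same order. Each replicate list held 2 regions that met its 1355 bp, the stronger of which began at 6968277 in replicate 1 and 6968199 in replicate 2. The third, 7199321 to 7200695, had 148, 163 and 182 in the same order, and 2 regions of replicate 1 met it. These regions stood above every left-arm region in all lists.

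Of the other centre regions in the 10 strongest that both replicates met, 4 lay in block 6, as did the first region, which makes 5 of 10 there. They were 5200164 to 5200606 (36.8 in replicate 1, 50.9 in replicate 2, 72.2 combined), 5599229 to 5600067 (116, 158 and 167), 5660879 to 5662283 (18.4, 28.5 and 47.5) and 5701219 to 5701966 (140, 163 and 182). The third of these is 1 of 2 combined regions of the span whose internal structure changed when positions were carried over from the earlier build, per comment lines in the file; the other is 7478663 to 7479197. The remaining centre regions were 6951107 to 6951827 (23.3, 38.3 and 58.4), 8091387 to 8092243 (83.8, 119 and 144) and 9787290 to 9788149 (63.8, 104 and 129). Replicate 2 had the higher −log10 q in all 10 centre regions, since replicate 1 was higher in 0 of 10. Over all combined regions met by both, replicate 1 was higher in 28.8%. The 10 were picked by combined q, and the difference was not tested.

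In the left arm, 5057293 to 5057754 stood apart, at 76.0 for replicate 1, 97.4 for replicate 2 and 124 for the combined list, where it ranked 54. It lay close to the border with the centre, and the fourth strongest left-arm region, 5055177 to 5055594 (18.8, 18.6 and 35.4), lay next to it. The second strongest, 255019 to 255876, had 22.9, 39.9 and 59.7. The third, 905333 to 905736, had 15.2, 26.2 and 41.6. Next came 4851424 to 4852061 (18.8, 16.4 and 33.6), 285620 to 286106 (10.4, 16.3 and 27.5), 2986978 to 2988207 (12.1, 14.5 and 27.5) and 2973850 to 2974467 (q 5.70e-11 in replicate 1, then 18.4 and 27.5). The last pair lay within the same 100 kb window. The last of the 10 were 4999078 to 4999579 (13.7, 13.4 and 26.5) and 2747823 to 2748713 (7.17, 18.3 and 25.3). Of these 10 regions, 3 lay in block 1, 3 in block 3 and 4 in block 5, and 0 in the other two blocks of the arm. Replicate 1 was higher than replicate 2 in 3 of the 10, against 28.8% of all combined regions met by both. The 10 left-arm regions had a median combined −log10 q of 30.6 (25.3 to 124), against 156 (47.5 to 242) for the 10 of the centre, and median widths of 560 bp and 848 bp. Both sets were picked by combined q, from 239 and 363 regions, so this contrast describes only the strongest regions. Over all regions of q 1e-10 or less the median −log10 q was 15.1 in the left arm and 15.7 in the centre.

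Repeated calling in the replicates followed strength. Of the 602 regions, 234 (38.9%, interval 35.0 to 42.9) met a region of both replicates by at least 1 bp, and over all combined regions the share was 38.8%. Replicate 1 alone met 73 (12.1%, 9.63 to 15.0), against 8.15% over all combined regions, a difference that was not tested. Replicate 2 alone met 118 (19.6%, 16.5 to 23.0), against 19.9% over all. Neither met 177 (29.4%, 25.8 to 33.2), against 33.2% over all. The members' share met by both differed from that of all other combined regions by 0.127 percentage points (234 of 602 against 2091 of 5397, Fisher's exact test, adjusted p = 0.965). How the combined list was made from the replicates is not given in the sources used here, so support by a replicate is not independent of a place in the combined list.

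Left arm and centre did not differ detectably in support. Both replicates met 91 of 239 left-arm regions (38.1%, 31.9 to 44.6) and 143 of 363 centre regions (39.4%, 34.3 to 44.6), with an adjusted p of 0.965 in Fisher's exact test. Neither replicate met 78 left-arm regions (32.6%, 26.7 to 39.0) and 99 centre regions (27.3%, 22.8 to 32.2), a difference that was not tested. Replicate 1 alone met 22 left-arm regions (9.21%, 5.86 to 13.6) and 51 centre regions (14.0%, 10.6 to 18.1). Among blocks, the share met by both ran from 31.5% in block 1 and 31.6% in block 8 to 50.7% in block 6. Block 6, the first of the centre, also had the highest median −log10 q, 5.38, and the most regions of q 1e-10 or less, 17. Support by both was 38.9% in the span, against 215 of 383 regions in the right arm of chromosome II (56.1%, 51.0 to 61.2). A q of 1e-10 or less was reached by 102 regions of the span (16.9%, 14.0 to 20.2), against 123 of the right arm (32.1%, 27.5 to 37.0). In tests added after the data were seen, the span lay below the right arm by 17.3 points in support (Fisher's exact test, adjusted p = 4.96e-07). It lay 15.2 points below it in the share of regions with q of 1e-10 or less (Fisher's exact test, adjusted p = 2.20e-07). The span was nearer to the rest of the series. Support by both was 38.0% in the central part of chromosome III and 38.8% over all combined regions. A q of 1e-10 or less was reached by 17.3% and 19.7% of regions there.

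By rank of combined q among the 602 regions, all of the first 100 were met by both replicates, and so were 86 of those ranked 101 to 200. At ranks 201 to 300 both replicates met 46 regions, replicate 1 alone 22, replicate 2 alone 29 and neither 3. Support by both then almost ended, with 2 of 100 at ranks 301 to 400, 0 of 100 at ranks 401 to 500 and 0 of 102 beyond. Among ranks 501 to 602, 88 of 102 regions were met by neither. Shares by rank were not computed over all combined regions. In the stronger 50% of regions, both replicates met 231 of 294 members and 2059 of 2706 others. That difference of 2.48 points was past no threshold (Fisher's exact test, adjusted p = 0.675). The weakest region met by both had a −log10 q of 4.02 in the combined list, and the strongest met by neither 5.05. Over all 5999 combined regions the classes overlapped more widely. There the weakest met by both had 3.03 and the strongest met by neither 8.49. The 3 strongest regions met by neither were 5691529 to 5691692 (5.05, 164 bp) and 8457178 to 8457736 (4.22, 559 bp) in the centre and 604119 to 604396 (4.36, 278 bp) in the left arm.

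**Figure D2:**
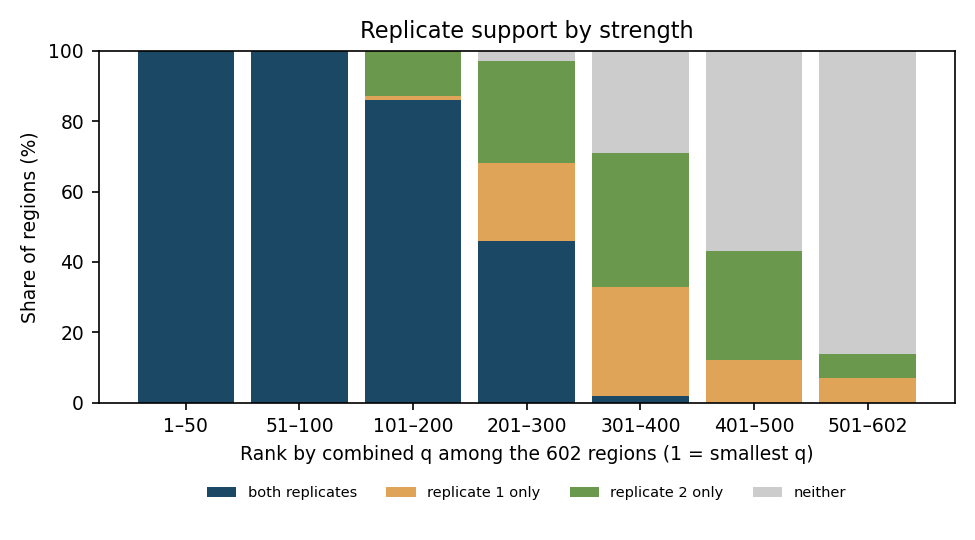
Share of regions in percent (y axis) met by both replicates, by replicate 1 only, by replicate 2 only or by neither, for the 602 regions grouped by rank of combined q (x axis, rank 1 is the smallest q). All of the first 100 regions are met by both replicates, and 88 of the last 102 by neither.

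Wider regions were on the whole the stronger ones. The rank correlation of width and −log10 q in the combined list was 0.733 over 239 left-arm regions, 0.677 over 363 centre regions and 0.682 over all combined regions, values that describe 1 list and carry no test. The 102 regions of q 1e-10 or less had a median width of 476 bp, against 277 bp for the other members. Regions met by both replicates had a median width of 392 bp and those met by neither 180 bp. Regions narrower than 50 bp numbered 47, of which 23 were in the left arm and 24 in the centre. They made up 7.81% of the members, against 7.30% of all combined regions. Of these 47, 41 were met by neither replicate and 0 by both, against 374 and 0 of 438 over all combined regions. Of the 12 regions of 1000 bp or more, 2 lay in the left arm and 10 in the centre, which held 363 of the 602 members. This split was not tested, and the share of such regions over all combined regions was not computed.

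Several of the widest regions met more than 1 region of a replicate. The widest of all, 8418903 to 8421560 in the centre, measured 2658 bp and had a −log10 q of 39.9 in the combined list. In replicate 1, 3 regions met it, the strongest at 4.11, and in replicate 2, 2 regions, the strongest at 19.4. Next came 8015315 to 8017557 (2243 bp, 6.62 in replicate 1, 7.62 in replicate 2 and 20.5 combined), which met 1 region of replicate 1 and 3 of replicate 2. The third, 8128209 to 8129795 (1587 bp), had 6.78, 2.94 and 10.4. The widest left-arm regions were 2986978 to 2988207 (1230 bp, described above), 1089089 to 1090105 (1017 bp; 7.06, 2.99 and 12.5) and 2747823 to 2748713 (891 bp). In all, 5 members met 2 or more regions of replicate 1 and 7 met 2 or more of replicate 2. The share of such regions over all combined regions was not computed.

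**Figure D3:**
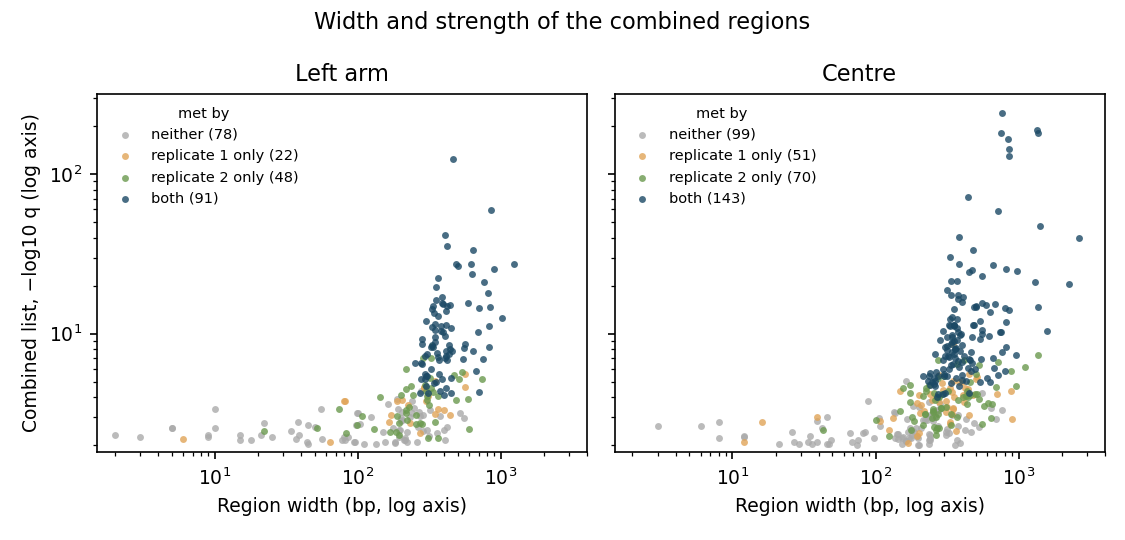
Width in bp (x axis, log scale) and −log10 q in the combined list (y axis, log scale) of each region of the left arm (left panel) and centre (right panel), coloured by the replicates that met it. Regions met by both replicates lie at or above a −log10 q of 4.02, while 41 of the 47 regions narrower than 50 bp were met by neither.

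The regions were unevenly spaced, and the longest empty stretches were in the left arm. Between neighbouring regions the median gap was 10.4 kb in the left arm (quartiles 2.21 and 30.0 kb) and 7.17 kb in the centre (2.04 and 18.1 kb). The lower quartiles were close and the upper ones apart. Gaps of 50 kb or more numbered 29 in the left arm and 19 in the centre. The 5 longest gaps were all in the left arm, and 0 regions of either replicate had a centre inside any of them. That was nearly fixed in advance. Only 13 of 326 replicate 1 regions and 14 of 374 replicate 2 regions of the span met no combined region. The longest gap ran from 1820265 to 2059033 (239 kb), followed by 3270928 to 3427939 (157 kb), 1520154 to 1663064 (143 kb), 3567926 to 3682548 (115 kb) and 2059358 to 2165012 (106 kb). The first and the fifth of these flank a lone region, 2059034 to 2059357 (combined −log10 q 7.08), which replicate 2 alone met. In the centre the longest gap was 104 kb.

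Of 102 windows of 100 kb, 2 held no region, both in the left arm, from 1900001 and from 3300001. Windows held 4.69 ± 3.08 regions in the left arm and 7.12 ± 3.96 in the centre (SD over 51 windows each). The variance was 2.03 times the mean in the left arm and 2.20 times in the centre. Windows with 10 or more regions numbered 4 in the left arm and 13 in the centre.

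The fullest window, 6800001 to 6900000 in the centre, held 18 regions, with 12 of replicate 1 and 14 of replicate 2. Its strongest region, 6890939 to 6892300, had 4.89 in replicate 1, 5.34 in replicate 2 and a combined −log10 q of 14.6, and was its 1 region of q 1e-10 or less. The crowding there was thus of moderate regions, with 7 of 18 met by both replicates and a median −log10 q of 4.48. The next window, 6900001 to 7000000, held 14 regions, 7 of them met by both and 4 of q 1e-10 or less, including the second strongest region of the span.

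In the left arm the fullest window was 2900001 to 3000000, with 16 regions, 6 of them met by both. They were packed on 1 side of it, with 11 of the 16 between 2970969 and 2988207, a stretch that begins and ends near the strong regions 2973850 to 2974467 and 2986978 to 2988207. This was the fullest stretch of 20 kb in the left arm. In the centre the fullest such stretch, 5689028 to 5707595, held 12 regions, with 5 met by both replicates and 3 of q 1e-10 or less. It includes the strong region 5701219 to 5701966. The window from 7800001 held 15 regions, the third highest number, and differed in kind. Only 2 of these were met by both replicates, 0 had a q of 1e-10 or less, and the median −log10 q was 2.48. The window from 9600001 held 14, of which 3 were met by both and 1 had a q of 1e-10 or less.

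**Figure D4:**
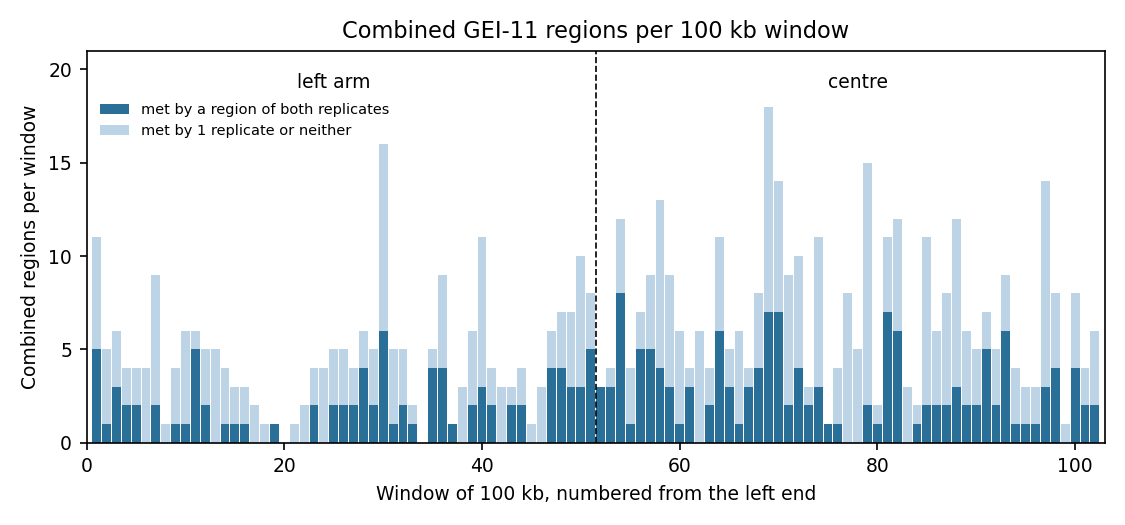
Number of combined regions (y axis) in each of 102 windows of 100 kb, numbered from the left end of chromosome II (x axis), split into regions met by both replicates (dark) and the others (light). The 2 empty windows are in the left arm, and the fullest window, with 18 regions, is in the centre.

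Some regions had close neighbours. A gap of 500 bp or less separated 39 of 601 neighbouring pairs, 12 of 238 in the left arm and 27 of 362 in the centre. These 39 pairs held 75 of the 602 regions. The share of such pairs over all combined regions was not computed. No pair was closer than 200 bp, and 200 bp was also the smallest gap over all chromosomes of the combined list. In 6 of the 39 pairs both regions were met by both replicates, and in 8 pairs at least 1 region was narrower than 50 bp. In 0 of 39 pairs did 1 region of a replicate span both. The closest pair was 1089089 to 1090105 and 1090306 to 1091073 in the left arm, 200 bp apart, with combined −log10 q of 12.5 and 21.1 and both met by both replicates. In the centre, 5701219 to 5701966 (182) had a neighbour of 42 bp at 5702183 to 5702224 (2.56) that neither replicate met. The pairs 5698263 to 5698636 and 5698855 to 5699181 (9.12 and 11.4), and 5593444 to 5594002 and 5594226 to 5594614 (23.1 and 9.83), were met by both replicates throughout. The pair 10168821 to 10169078 and 10169292 to 10169793 (3.02 and 5.19) was not.

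For the 234 regions met by both replicates, Pearson's r of their −log10 q values was 0.987 and Spearman's rho 0.719, given as descriptions across regions of 1 pair of libraries. For the 132 of these with a combined q above 1e-10, rho was 0.174, though that cut narrows the range of strength by construction. Replicate 1 had the higher −log10 q in 67 of 234 members (28.6%), against 28.8% over all combined regions met by both. For the members the median difference, replicate 1 minus replicate 2, was -0.756 (quartiles -2.35 and 0.283), against -1.02 over all. The median difference was -0.687 in the left arm and -0.795 in the centre. Centres in replicate 1 and replicate 2 lay a median of 35.5 bp apart, and within 100 bp in 197 of 234 regions (84.2%). Both replicate regions had to meet the same combined region, which by itself limits this distance. Combined regions were wider than their replicate regions, by a median ratio of 1.23 to replicate 1 and 1.20 to replicate 2.

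**Figure D5:**
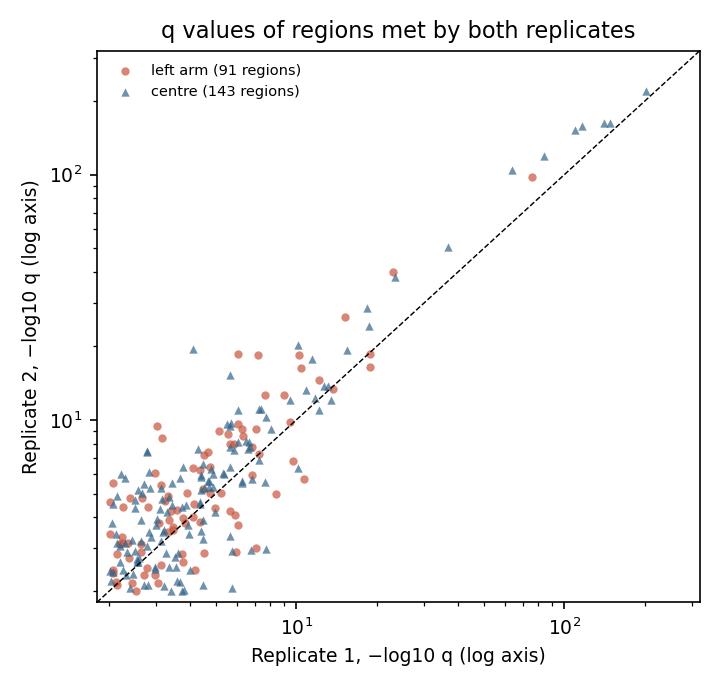
The −log10 q in replicate 1 (x axis, log scale) and replicate 2 (y axis, log scale) of each region met by both, for 91 left-arm and 143 centre regions; the dashed line marks equal values. More regions lie above the line than below it, since replicate 1 had the higher value in 67 of 234.

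Few replicate regions of the span were lacking from the combined list. In replicate 1, 13 of 326 regions (3.99%, interval 2.14 to 6.72) met no combined region, against 5.46% over its whole list. In replicate 2, 14 of 374 (3.74%, 2.06 to 6.20) met none, against 4.38%. Among the 13 of replicate 1, 1 had a q of 1e-10 or less and the others a −log10 q of 2.80 or less. All 14 of replicate 2 had 2.59 or less, and none of the 13 or the 14 met a region of the other replicate. The strongest of replicate 2 were 3955133 to 3955415 (2.59) in the left arm and 7001544 to 7001547 (2.45) and 7185615 to 7185645 (2.45) in the centre. In replicate 1, 7003152 to 7003342 (2.80) and 8991466 to 8991503 (2.58), both in the centre, were the second and the third.

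The exception was the strongest region of the whole replicate 1 list, 5543228 to 5544528 in the centre. It was 1301 bp wide and had a q of 3.86e-293 (−log10 q 292), rank 1 of 3021 regions. No region of replicate 2 or of the combined list used here met it. The nearest replicate 2 region, 5511816 to 5512032 (2.44), lay 31.2 kb away, and the nearest combined region, 5572161 to 5572436 (3.30), lay 27.6 kb away. It is therefore no member of the 602, and its signal in replicate 2 was not analysed here. The lists used here may not hold every region the authors called, and what its absence from 2 of them reflects was not tested.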

How the data were processed

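Regions and their q values were taken without change from the authors' deposited lists as used here, which may not hold every region called. Per the file headers, the regions were called with PeakSeq and their positions, starts and ends counted from 1, are in WormBase WS220 after being carried over from a build that is not named. The aligner, versions, filters, use of the inputs and the way the replicates were combined are unstated in the headers and labels. Widths, gaps, counts per length and −log10 q were computed from the 3 lists with Python 3.11.15, NumPy 2.4.6 and SciPy 1.17.1. Regions met when they shared at least 1 bp; of several, that with the smallest q was used. A chromosome's length was the largest end position of its regions over the 3 lists. Where an alternative was tested, its p took the place of the main one among the 7 before adjustment. Densities were compared by two-sided exact binomial tests and shares by two-sided Fisher's exact tests, adjusted by Benjamini-Hochberg over 7 tests at 0.05. Intervals are 95% exact (Clopper-Pearson) and cover counting error only; regions are not independent replicates, and the 2 ChIP samples allow no test over samples. Tests were run on simulated data drawn independently, without the clustering of the real regions. That check therefore cannot show that p holds for clustered regions. Named regions were the 10 strongest met by both replicates and the 3 widest of each division, the 5 fullest windows of 100 kb, the 3 strongest met by neither replicate, the 3 strongest replicate regions outside the combined list and the 5 closest pairs; the others were named after their values were seen. The members, lists and tests were chosen with earlier results of these data known. Blocks were set at 1.02 Mb in place of 1 Mb so that the border of the arm fell between them.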

Additional observations from a re-analysis of the deposited data

How the results depend on the processing

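Of 54 alternatives, 39 kept the direction and the side of the threshold or stayed within the interval. The left arm to centre ratio lost its call among regions of q 1e-10 or less (0.672), where fewer regions were tested, and was 0.539 by covered length, which has no test. In the replicate lists it ran from 0.575 to 0.648 and against the right arm from 0.444 to 0.502, and the ratio of the span to its length ran from 0.987 to 1.06. Differences past no threshold turned in direction without passing one. The left arm minus centre share of regions with small q was -3.49 to -2.71 points in the replicate lists, -2.55 at q of 1e-5 or less and -1.45 at q of 1e-20 or less. The left arm minus centre difference in support was 4.03 points in the stronger 50% of regions. Between members and all others the difference in support was -0.172 points with 1 replicate, and 4.54 points with the other, which kept the direction. Set against the right arm only, an alternative chosen after the data were seen, the members' differences were past the threshold, at -17.3 points in support, turned from 0.127, and -15.2 points in strong regions, against -3.05. Matching by centres within 200 bp moved the share of replicate regions outside the combined list to 8.59% and 8.29% and rho to 0.726, and rho was 0.174 at combined q above 1e-10, a cut that narrows the range of strength by construction. Except where stated, the cause was not tested. No paired analysis was possible because no list of the input samples was used. With depth unknown, what it limits among weak regions cannot be given.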
